A study of Homo sapiens with 6 samples.

Results

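Expression of 10 immediate early and AP-1 genes was examined in the human embryonic stem cell line H1, an established line, on 2 culture coatings. The genes were FOS, FOSB, FOSL2, JUN, JUNB, JUND, EGR1, ATF3, IER2 and MYC. They were chosen by symbol, and each matched 1 of the 60499 Ensembl gene IDs in the deposited tables. All 10 passed the filter on low counts and are among the 17608 genes tested. The LN-521 group was grown on laminin-521 alone, and the LN-521+LN-221 group on laminin-521 together with laminin-221. Laminins are basement membrane proteins to which the cells attach. Both groups were H1 cells in NutriStem medium, which was changed daily for 4 days, and RNA was taken at confluence. Each group had 3 wells, sequenced as separate libraries of total RNA. The labels number the wells as biological replicates of the same line but do not say whether they came from separate cultures, so p-values measure the spread between wells.

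Immediate early genes are transcribed within minutes of a signal, without new protein synthesis, and most of their transcripts decay fast. Growth factors reach them through the ERK kinases, which act on the serum response factor SRF and its ETS partners at CArG boxes, and through CREB at cAMP response elements (CREs). FOS and JUN proteins pair through leucine zippers to form AP-1, which binds DNA as a dimer. Changes of medium or serum and detachment of the cells also induce these genes.

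The RefSeq promoter table (GRCh38.p14) held 9 of the 10 genes, in 10 windows. The 250 bases before each start were searched on both strands for exact matches. The elements were a CArG box (CCWWWWWWGG, W being A or T), a CRE (TGACGTCA) and an AP-1 element (TGAGTCA or TGACTCA). They also included an E-box (CACGTG), an EGR site (GCGTGGGCG or GCGGGGGCG) and a TATA box (TATAAA). EGR1 was the member with exact CArG boxes in its window, 2 of them, at bases -105 to -96 and -83 to -74. Of all 35116 promoter windows, 1.16% held a CArG box. JUND was the member with an exact CRE in its window, at bases -200 to -193, which 1.65% of all windows held. The 2 stretches below are shown because they carry the inducible elements described above, with the matches in capitals.
EGR1, chr5:138465344-138465435, + strand: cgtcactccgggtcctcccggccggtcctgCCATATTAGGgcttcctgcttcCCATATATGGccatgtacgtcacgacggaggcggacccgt
JUND, chr19:18281785-18281852, - strand: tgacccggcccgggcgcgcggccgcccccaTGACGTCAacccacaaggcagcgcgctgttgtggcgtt
The TATA box letters were found before FOS (-33 to -28), JUNB (-31 to -26) and FOSB (-30 to -25). They were also found before 1 of the 2 ATF3 starts, farther away, at -230 to -225. Of all windows, 10.7% held a match. The AP-1 element, the E-box and the EGR site had no match in these windows. Matches describe the letters of the window and are not sites shown to be bound. Elements farther from a start, or with other letters, were not searched for, so a gene without a match here may still carry one. MYC is named only.

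Libraries held between 20606450 and 26836686 counts. Defining stem cell markers were present in every library: POU5F1 was at 665 TPM or more, SOX2 at 137 or more and NANOG at 28.9 or more. TPM is the deposited length-corrected level. The 7 pluripotency markers summed to between 2631 and 2913 TPM in the LN-521 wells and between 2546 and 2722 TPM in the others. Of these 7, 4 were called: POU5F1 (-0.36, edgeR adjusted p = 0.0037), NANOG (-0.73) and TDGF1 (-0.65) were lower and LIN28A (0.23) higher on LN-521+LN-221. On log2(TPM + 1) neither POU5F1 nor NANOG passed (limma adjusted p = 0.145 and 0.162). POU5F1 was also lost without LN-521+LN-221 replicate 2 (edgeR adjusted p = 0.0508) and NANOG with the GC correction and replicate block (edgeR adjusted p = 0.0716), while both stayed below 0. Of the other lineages' markers, all 4 mesoderm and all 4 endoderm genes stayed below 1 TPM, as did DCN, LUM and TWIST1 of the 6 fibroblast markers. The fibroblast markers summed to between 79.0 and 92.6 TPM in the LN-521 wells and between 83.1 and 98.9 TPM in the LN-521+LN-221 wells, mostly from COL1A1 and COL1A2. The neural progenitor markers summed to between 64.7 and 75.8 and between 72.3 and 72.9 TPM, with PAX6 and SOX1 below 1 TPM. The trophoblast markers summed to between 12.9 and 16.1 and between 12.7 and 14.5 TPM, with CGA and GATA3 below 1 TPM. No tested marker of these other lineages was called. The summed mesoderm markers were at 0.22 to 0.53 TPM on LN-521 and 0.54 to 1.01 TPM on LN-521+LN-221. These sums did not overlap, but by a narrow gap. None of the 4 mesoderm genes passed the count filter, so no difference is read from them. LN-521 replicate 1 stood apart from the other wells on the second principal component, which held 21.7% of the variance, at 31.1 against -16.0 and -8.44 for the other wells of its coating. Mitochondrially encoded transcripts took 0.315% to 0.387% of the counts in LN-521 wells and 0.400% to 0.441% in LN-521+LN-221 wells, so this share did not overlap between the coatings.

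Levels of different genes were compared per length, as TPM. IER2, a nuclear regulator, was highest at a mean of 20.8 TPM (17.8 to 22.2 over the 6 wells). FOS followed at 18.3 TPM (15.6 to 21.2) and JUND at 16.5 TPM (13.4 to 20.3), and the ranges of these 3 genes overlapped. MYC lay at 10.7 TPM (7.92 to 15.01), below JUND and above EGR1 in every well, although its range overlapped both of theirs. EGR1, at 7.37 TPM (6.66 to 8.17), and JUN, at 7.36 TPM (6.63 to 8.40), could not be ordered. ATF3, at 4.43 TPM (3.75 to 5.07), lay below JUN in every well. It lay above JUNB, at 3.45 TPM (2.78 to 4.11), in every well, although the ranges overlapped. FOSB, at 0.905 TPM (0.64 to 1.30), and FOSL2, at 0.725 TPM (0.41 to 1.39), were lowest, below JUNB in every well and not distinct from each other. FOS was thus the most abundant FOS-family transcript and JUND the most abundant JUN-family transcript at the level of TPM.

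The comparison of the coatings asked whether adding laminin-221 changes these transcripts. MYC was lower on LN-521+LN-221, and no other member passed the test. Of the 10 genes, 1 was called by the quasi-likelihood test of edgeR (threshold 0.05 after Benjamini-Hochberg adjustment over all genes tested), against 2.53% of all genes tested. The background was 1.14% in the lower direction, where MYC lay, and 1.40% in the higher direction, where no member was called. The members' median log2 difference was -0.06, beside -0.0011 for all genes tested, with 7 values below 0 and 3 above. On log2(TPM + 1), 3 of the 8 members that passed the TPM filter were below 0. MYC was also the member whose wells did not overlap between the coatings, a pattern that 19.9% of all genes tested showed in either direction and 9.68% showed downward. In bulk RNA, fewer cells with a transcript and less of it per cell cannot be told apart.

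**Figure D1:**
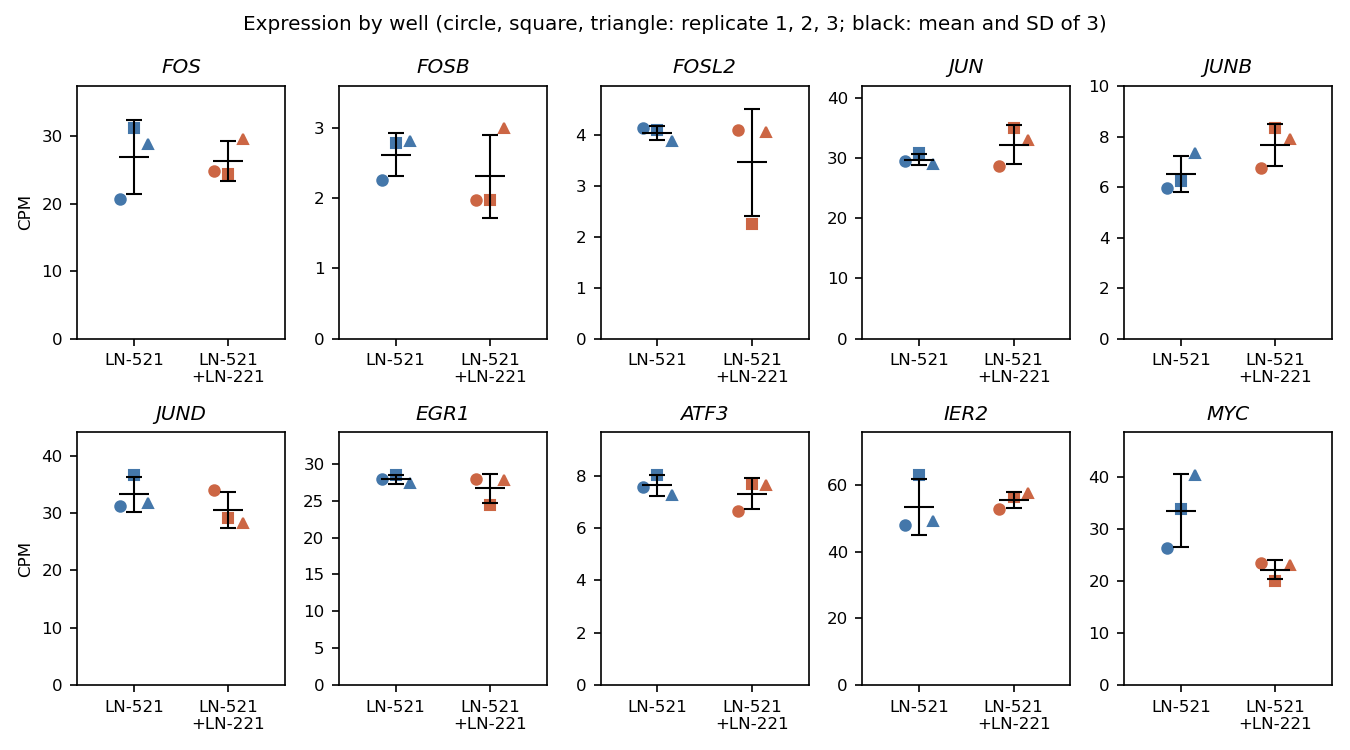
Expression of each of the 10 genes as CPM (counts scaled by TMM and library size) in the 3 wells on LN-521 (blue) and the 3 on LN-521+LN-221 (orange), with mean and SD of 3 wells in black. MYC is the gene whose wells separate, with 26.4 to 40.5 CPM in LN-521 wells and 20.05 to 23.5 CPM in the others.

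Positions below are from GENCODE release 29 (GRCh38), and exon numbers are those of the principal transcript. Among the FOS proteins, which dimerise with JUN proteins and not with each other, no difference passed. FOS, the classic serum-induced member (ENSG00000170345, chromosome 14, 75278774 to 75282230, + strand, 4 exons), was at 20.8, 31.2 and 28.8 CPM in replicates 1 to 3 on LN-521 and at 24.9, 24.4 and 29.7 CPM on LN-521+LN-221. CPM here means each count as a share of the TMM-scaled library total. The LN-521 wells held both the lowest and the highest value. The log2 fold change, LN-521+LN-221 over LN-521 and called the log2 difference from here, was -0.04 ± 0.14 (SE, n = 3 wells each; edgeR adjusted p = 0.941), with a 95% interval in fold of 0.789 to 1.21. The sign of this small difference turned on log2(TPM + 1), to 0.03, so no direction is given for FOS.

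FOSB, induced with FOS and also read as a shorter splice form (ENSG00000125740, chromosome 19, 45467995 to 45475179, + strand, 4 exons), was at 2.27, 2.78 and 2.81 CPM on LN-521 and at 1.97, 1.97 and 3.00 CPM on LN-521+LN-221. The highest well was replicate 3 of LN-521+LN-221, and the other wells of that coating were the lowest of all 6. The log2 difference was -0.17 ± 0.21 (SE, n = 3 wells each; edgeR adjusted p = 0.774), from 41 to 74 counts per library. It was -0.41 without LN-521+LN-221 replicate 3 and -0.07 without replicate 1 or 2 of that coating, so its size rested on single wells. FOSL2, which encodes FRA2, a FOS protein without the strong activation domain of FOS (ENSG00000075426, chromosome 2, 28392448 to 28417312, + strand, 4 exons), was at 4.14, 4.10 and 3.89 CPM on LN-521 and at 4.09, 2.24 and 4.05 CPM on LN-521+LN-221. Only replicate 2 of LN-521+LN-221 was low, and the other 5 wells lay close together. The log2 difference was -0.22 ± 0.20 (SE, n = 3 wells each; edgeR adjusted p = 0.665). Without that well it was 0.01, so the sign of the FOSL2 difference rested on it.

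The JUN proteins can pair with themselves, with FOS proteins or with ATF proteins, and their genes have no introns. JUN (ENSG00000177606, chromosome 1, 58780788 to 58784327, - strand, 1 exon) was at 29.4, 30.8 and 28.9 CPM on LN-521 and at 28.6, 34.98 and 32.98 CPM on LN-521+LN-221. The lowest and the 2 highest wells were all on LN-521+LN-221. Its log2 difference was 0.12 ± 0.08 (SE, n = 3 wells each; edgeR adjusted p = 0.569). JUNB, a weaker activator that can hold JUN back (ENSG00000171223, chromosome 19, 12791496 to 12793315, + strand, 1 exon), was at 5.97, 6.24 and 7.34 CPM on LN-521 and at 6.74, 8.34 and 7.90 CPM on LN-521+LN-221. The upper wells on LN-521+LN-221 exceeded all 3 on LN-521, while replicate 1 fell among them. The log2 difference was 0.23 ± 0.13 (SE, n = 3 wells each; edgeR adjusted p = 0.443), the lowest adjusted p-value outside MYC. An exon of HOOK2 overlaps JUNB by 259 bases on the other strand. Whether counting used the strand is not given in the sources used here. HOOK2 had a log2 difference of 0.05 ± 0.08 (SE; edgeR adjusted p = 0.845).

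JUND, the JUN protein usually present without induction (ENSG00000130522, chromosome 19, 18279760 to 18281622, - strand, 1 exon), carries the CRE shown above. Its wells were at 31.3, 36.7 and 31.8 CPM on LN-521 and at 34.0, 29.2 and 28.3 CPM on LN-521+LN-221. Replicate 1 of LN-521+LN-221 exceeded 2 wells of LN-521, so the groups overlapped. The log2 difference was -0.13 ± 0.09 (SE, n = 3 wells each; edgeR adjusted p = 0.555).

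The other factors of the immediate early response were close between coatings. EGR1, a zinc finger factor whose promoter carries the CArG boxes shown above (ENSG00000120738, chromosome 5, 138465490 to 138469315, + strand, 2 exons), was at 27.9, 28.5 and 27.3 CPM on LN-521 and at 27.9, 24.4 and 27.7 CPM on LN-521+LN-221. Only replicate 2 of LN-521+LN-221 lay apart, below the rest. Its log2 difference was -0.07 ± 0.08 (SE, n = 3 wells each; edgeR adjusted p = 0.771), with a 95% interval in fold of 0.852 to 1.07.

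ATF3, a bZIP repressor induced by growth signals and by stress (ENSG00000162772, chromosome 1, 212565334 to 212620777, + strand, 4 exons), was at 7.58, 8.05 and 7.26 CPM on LN-521 and at 6.65, 7.67 and 7.64 CPM on LN-521+LN-221. Its groups overlapped, with a log2 difference of -0.06 ± 0.12 (SE, n = 3 wells each; edgeR adjusted p = 0.873). On log2(TPM + 1) the ATF3 value turned to 0.12. IER2 (ENSG00000160888, chromosome 19, 13150415 to 13154908, + strand, 2 exons) was at 48.0, 63.2 and 49.2 CPM on LN-521 and at 52.9, 56.3 and 57.6 CPM on LN-521+LN-221. Replicate 2 of LN-521 was the highest well and the other wells of that coating the lowest. Its log2 difference was 0.06 ± 0.09 (SE, n = 3 wells each; edgeR adjusted p = 0.837). An antisense gene overlaps IER2 by 629 bases and had at most 2 counts in a library.

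**Figure D2:**
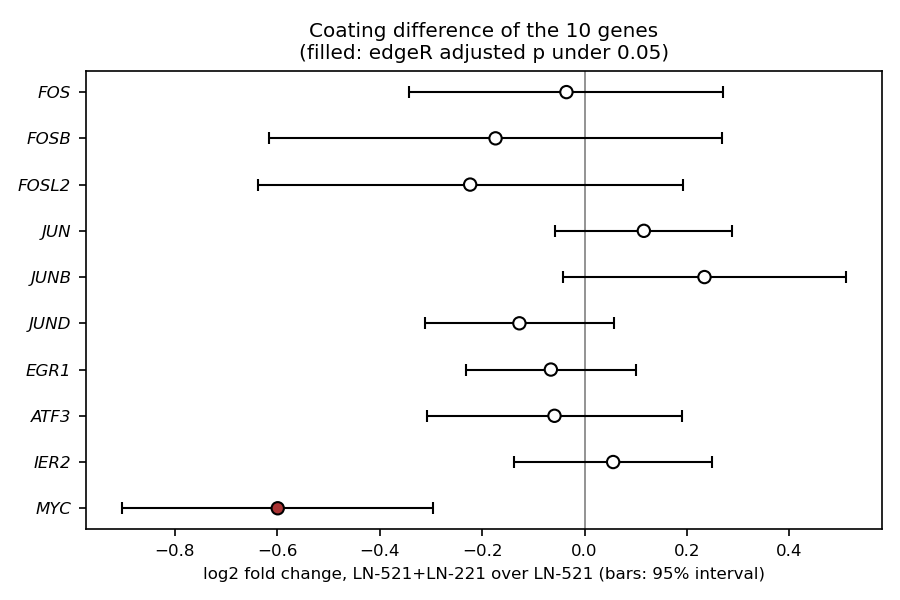
Log2 fold change of LN-521+LN-221 over LN-521 for each of the 10 genes with its 95% interval from the edgeR fit over 3 wells per coating. The MYC interval, -0.90 to -0.30, lies wholly below 0, and the other 9 intervals cross 0.

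For 6 of the 10 genes, FOS, JUN, JUND, EGR1, ATF3 and IER2, the 95% interval lay within 0.789-fold to 1.22-fold. Those of FOSB and FOSL2 reached down to 0.653-fold and 0.642-fold, and that of JUNB up to 1.42-fold. A p-value that misses the threshold does not show that the coatings gave the same level.

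MYC encodes a bHLH zipper factor that drives growth and ribosome production and is itself an immediate early gene. Its gene (ENSG00000136997, chromosome 8, 127735434 to 127741434, + strand, 3 exons) was at 26.4, 33.9 and 40.5 CPM on LN-521 and at 23.5, 20.05 and 23.1 CPM on LN-521+LN-221. Every LN-521 well was higher than every LN-521+LN-221 well, by a narrow gap at LN-521 replicate 1. Its mean fell from 33.6 ± 7.10 to 22.2 ± 1.88 CPM (SD, n = 3 wells each). The log2 difference was -0.60 with an SE of 0.14 (edgeR adjusted p = 0.0498). In fold this is 0.660, with a 95% interval of 0.535 to 0.815.

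The MYC call sat at the edge of the threshold: 444 genes had a lower adjusted p-value, of the 446 called. Its direction was the same in all 17 other fits, where the log2 fold change ran from -0.74 to -0.44 and the adjusted p-value from 3.79e-10 to 0.315. MYC passed in 7 of the 11 other fits that used all libraries. Both fits with a replicate block were among these 7. So was the fit with no filter beyond 1 count, which alone gave the adjusted p of 3.79e-10. RLE size factors in place of TMM moved the edgeR adjusted p to 0.0513, and a GC correction moved it to 0.102. On log2(TPM + 1) and log2(TPM + 0.1) the limma adjusted p was 0.290 and 0.297. Of the 6 fits that left out a library, 1 kept the call. That was the fit without LN-521 replicate 1, the well that stood apart, where the log2 difference was -0.74 (edgeR adjusted p = 9.28e-06). The call was lost without LN-521 replicate 2 (edgeR adjusted p = 0.315), without LN-521 replicate 3 (0.0914) and without LN-521+LN-221 replicate 1, 2 or 3 (0.141, 0.211 and 0.180). The share of mitochondrial transcripts and the levels of POU5F1, NANOG and TDGF1 given above moved with the coating too, and the part of the pluripotency markers in the MYC difference was not tested. With mitochondrial, ribosomal RNA, 7SK and 7SL genes left out, the MYC value was -0.60 (edgeR adjusted p = 0.0460).

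**Figure D3:**
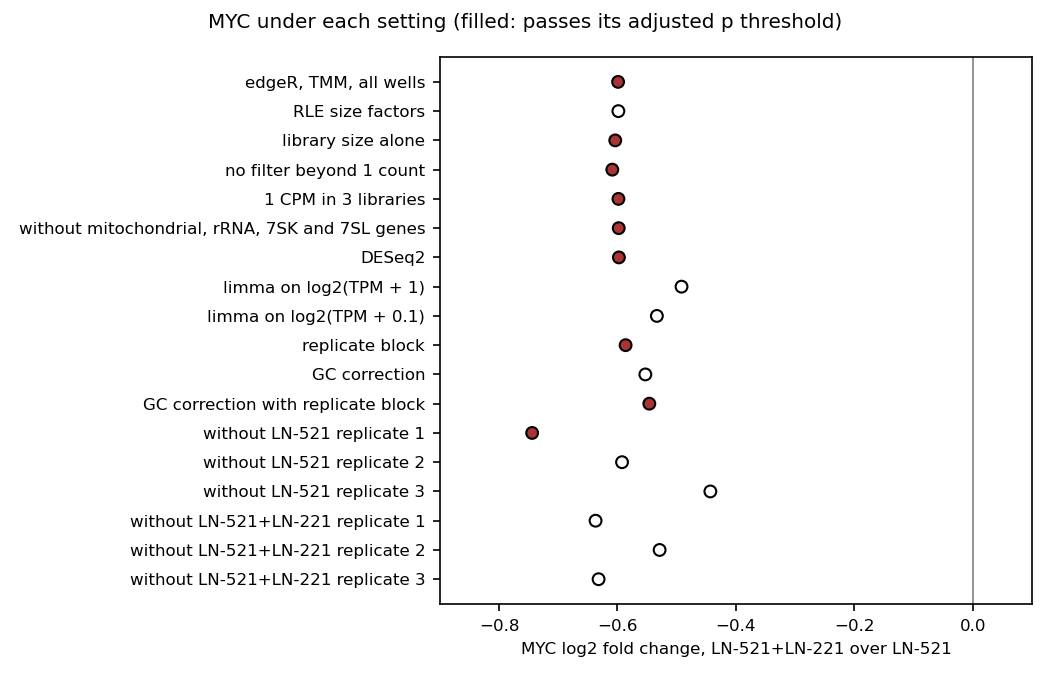
MYC log2 fold change (x axis) under the test as described and in 17 other fits (rows), with filled points where the adjusted p was under 0.05. All values lie between -0.74 and -0.44, while 8 of the 17 other fits pass.

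The spread between wells of one coating was examined next, since these genes respond to handling. Over the 10 genes the pooled SD of log2 CPM within coatings had a median of 0.159, beside 0.123 for all genes tested, and ran from 0.0801 for EGR1 to 0.344 for FOSL2. Of the 10 genes, 5 had an edgeR biological coefficient of variation above the trend for their expression level, as did 33.8% of all genes tested. FOS, at 11.4%, was 1.70 times its trend and MYC, at 11.3%, was 1.68 times its trend. IER2 followed at 1.26 times, while EGR1 was at 0.911 and ATF3 at 0.849 times.

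**Figure D4:**
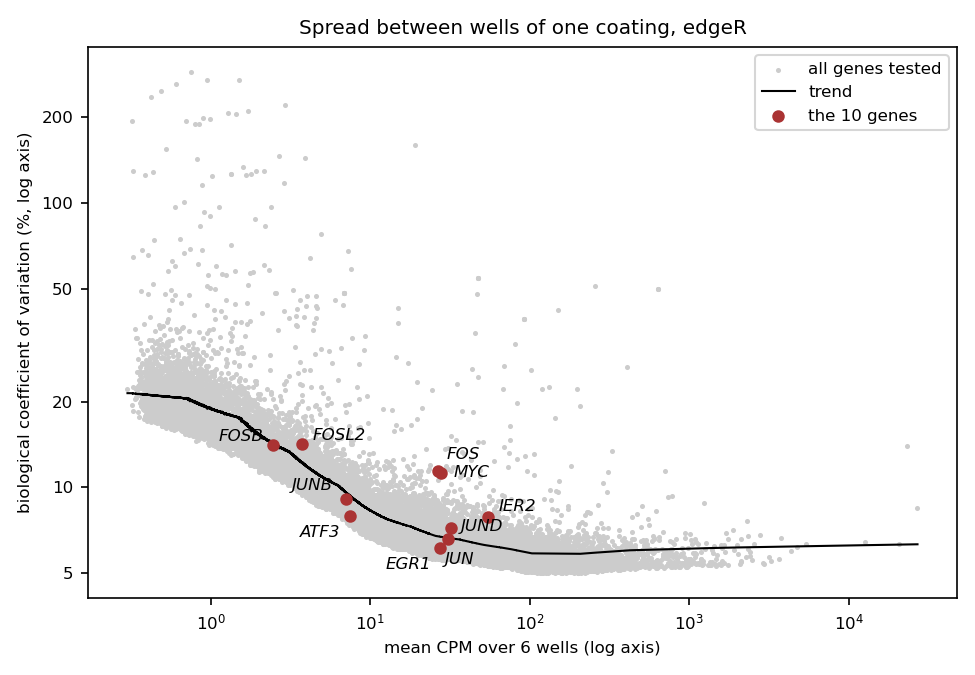
Biological coefficient of variation between wells (y axis, log scale) against mean CPM over 6 wells (x axis, log scale) for all genes tested (grey), with the edgeR trend (black) and the 10 genes (red). FOS and MYC lie above the trend at 11.4% and 11.3%, and EGR1 and ATF3 lie below it.

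Coefficients of variation of CPM were taken over the 3 wells of each coating. On LN-521, MYC had 21.1%, FOS 20.3% and IER2 15.9%, where counting alone would give 3.45%, 3.85% and 2.74%. FOSB followed at 11.7% against 12.4% from counting, JUNB at 11.2% against 7.86% and JUND at 9.01% against 3.47%. ATF3 had 5.15% against 7.26%, FOSL2 3.25% against 9.98%, JUN 3.22% against 3.68% and EGR1 2.16% against 3.80%. For each of the 10 genes, leaving out 1 well lowered the value by more than 1.5 times, so their order on LN-521 rested on single wells. Without replicate 1 it was 5.71% for FOS, 12.6% for MYC and 0.692% for FOSB. Without replicate 2 it was 1.75% for IER2, 1.046% for JUND, 1.23% for JUN, 1.40% for EGR1 and 3.00% for ATF3. Without replicate 3 it was 3.16% for JUNB and 0.693% for FOSL2.

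On LN-521+LN-221, FOSL2 had 30.5% against 11.4% from counting and FOSB 25.6% against 13.9%. FOS had 11.1% against 4.12%, JUNB 10.8% against 7.65%, JUN 10.1% against 3.73% and JUND 10.1% against 3.85%. MYC had 8.48% against 4.499%, ATF3 7.98% against 7.82%, EGR1 7.40% against 4.11% and IER2 4.37% against 2.84%. These too moved by more than 1.5 times with 1 well left out, for all 10 genes. Without replicate 1 of this coating the value was 0.225% for ATF3, 1.54% for IER2, 2.10% for JUND, 3.86% for JUNB and 4.15% for JUN. Without replicate 2 it was 0.673% for FOSL2, 0.341% for EGR1 and 0.933% for MYC. Without replicate 3 it was 0.0405% for FOSB and 1.43% for FOS. With 3 wells a coefficient of variation is imprecise, can fall below counting error by chance, and does not class a gene as level or variable. In TPM the order of the genes differed. On LN-521 the coefficient of variation of TPM was 50.8% for FOSL2, 15.9% for ATF3, 15.7% for MYC, 13.3% for JUND and 12.8% for FOS, and the other 5 genes lay between 6.65% and 11.2%, EGR1 at 8.51% among them. On LN-521+LN-221 it was 38.7% for FOSB and 26.1% for FOSL2, and the other genes lay between 0.554% and 13.5%. Counting figures take every count as an independent molecule.

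No well was high for all members. In CPM, LN-521 replicate 2 was the highest well of its coating for 6 of the 10 genes and the lowest for none. LN-521 replicate 1 was the lowest for 6. This order turned on the deposited TPM, where replicate 1 was highest for 5 genes and lowest for 2, and replicate 2 was highest for 2 and lowest for 4. Relative to the coating mean, the members' median log2 CPM was -0.10, 0.06 and -0.03 in LN-521 replicates 1 to 3 and -0.07, -0.08 and 0.06 in those of LN-521+LN-221. The median over all genes tested was at most 0.0055 in any well. LN-521 replicate 2 had the largest library, at 26836686 counts, and the lowest mitochondrial share, at 0.315%, and its 7SL and 7SK RNAs took 6.14% of the counts against 4.54% to 5.45% in the other wells. The part of these in the members' levels was not tested. In CPM on LN-521+LN-221, replicates 1, 2 and 3 were highest for 4, 3 and 3 genes and lowest for 4, 5 and 1. Over all 6 wells, 7 genes peaked on LN-521 and 3 on LN-521+LN-221 in CPM.

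For FOS and EGR1, the genes most like each over the 6 wells were not other members. Likeness was taken as the mean absolute difference between 2 genes' log2 CPM, each centred on its own mean, over 6 wells. By this measure the genes nearest to FOS included COX14 (0.0170), SYNDIG1L (0.0431), AGER (0.0494) and ATP5MF-PTCD1 (0.0518), of 14645 genes compared. The nearest member was IER2 (0.126), at rank 1676, and FOSB (0.147) was at rank 3012. For EGR1 the nearest included PRKRIP1 (0.0144), CYB561A3 (0.0181), RPUSD2 (0.0184) and NBDY (0.0192), and the nearest member was JUND (0.0823), at rank 3592. With 6 wells many genes come close to any pattern. The members are few among the 14645 genes compared, so these ranks do not show whether members move together.

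The genes around the members were taken from 7 lists of 123 different genes, of which 111 were tested. Of these, 5 passed the threshold, 4 higher and 1 lower on LN-521+LN-221, beside 2.53% of all genes tested. Among other immediate early genes, 33 of 37 were tested, with 2 higher and 1 lower, and their median log2 difference was -0.09, beside -0.0011 for all genes tested. CCN2, a matricellular protein made on growth factor and YAP signals, fell from 41.0 ± 4.33 to 28.3 ± 1.499 CPM (SD, n = 3 wells each), by 0.54 on the log2 scale (edgeR adjusted p = 0.00117). An antisense gene overlaps CCN2 by 148 bases. RHOB, a small GTPase of the actin cytoskeleton, rose from 21.5 ± 0.700 to 29.5 ± 3.26 CPM (SD, n = 3 wells each), by 0.46 (edgeR adjusted p = 0.00584). KLF6, a zinc finger factor, rose from 30.5 ± 2.77 to 39.1 ± 1.93 CPM (SD, n = 3 wells each), by 0.36 (edgeR adjusted p = 0.0184). RHOB no longer passed without LN-521 replicate 3 or LN-521+LN-221 replicate 3, and KLF6 not without LN-521+LN-221 replicate 2 or 3. SGK1, a further gene of this list, passed with the GC correction with and without the block and without LN-521 replicate 1.

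Of 17 AP-1 and related bZIP partners, 14 were tested, with a median of -0.0033, and 1 passed. That was MAF, a large MAF protein, at 17.9, 18.1 and 14.6 CPM on LN-521 and 29.6, 29.7 and 28.2 CPM on LN-521+LN-221. It rose by 0.79 ± 0.09 on the log2 scale (SE, n = 3 wells each; edgeR adjusted p = 5.40e-05). FOSL1, the FOS gene outside the members, had 3 to 12 counts per library and was not tested. Of 20 upstream kinases and SRF cofactors, all tested, none passed, and their median was -0.0016. MAP2K2, a kinase of the ERK cascade, was the most abundant by TPM, with a log2 difference of -0.01 ± 0.07 (SE; edgeR adjusted p = 0.977). For MAP2K2 the sign turned under a GC correction, to 0.05, and its reads were divided with other genes, which its TPM rank depends on. In other fits MAP2K7 passed (replicate block, no filter, and without LN-521 replicate 2), RPS6KA5 passed with the GC correction and block, and SRF passed without LN-521 replicate 1.

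Of 15 classic AP-1 targets, 10 were tested, with a median of -0.04, and 1 passed. CCND1, a cyclin of the G1 phase, rose from 69.5 ± 7.50 to 110.3 ± 5.90 CPM (SD, n = 3 wells each), by 0.67 (edgeR adjusted p = 3.68e-05). An exon of LTO1 overlaps it by 253 bases on the other strand. On log2(TPM + 1) CCND1 was at 0.68 (limma adjusted p = 0.0809), and none of the 5 genes passed there. CCND1 was also lost with the GC correction and replicate block together, at 0.73 (edgeR adjusted p = 0.108), where the other 4 genes passed. Around MYC, none of the 11 network genes passed (median -0.0036), and neither did any of the 11 classic MYC targets (median -0.02), all of them tested. The log2 difference was 0.12 ± 0.06 for MGA, a MAX partner, and 0.20 ± 0.07 for MYCN, the paralogue of MYC (SE; edgeR adjusted p = 0.338 and 0.165). With a GC correction MYCN passed, at 0.22 (edgeR adjusted p = 0.0396). NPM1 and LDHA, the most abundant of the MYC targets, had log2 differences of 0.06 ± 0.05 and -0.04 ± 0.06 (SE; edgeR adjusted p = 0.628 and 0.816), and both had reads divided with other genes. Of the MYC targets, NCL passed with the GC correction, with and without the block, and without LN-521 replicate 2. FBL, NOP58, MGA and MYCN passed without LN-521 replicate 1. None of the 13 heat shock genes tested, of 14, passed (median 0.02). HSPA8 and HSP90AB1, constitutive chaperones, had log2 differences of 0.02 ± 0.05 and 0.01 ± 0.05 (SE; edgeR adjusted p = 0.884 and 0.950). The HSP90AB1 reads were divided with other genes. DNAJA1 passed with no filter, with the replicate block, with the GC correction with and without the block, and without LN-521 replicate 1, and HSPA1B with the GC correction with and without the block and without LN-521 replicate 2.

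**Figure D5:**
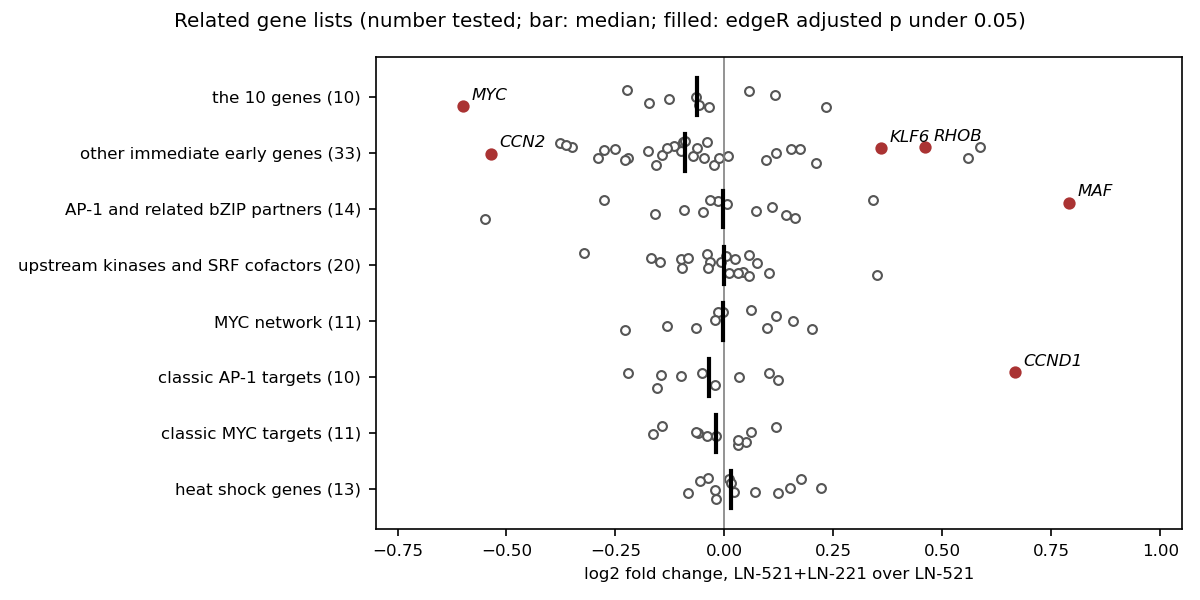
Log2 fold change of LN-521+LN-221 over LN-521 for every tested gene of the 10 members and the 7 related lists (rows, number tested in brackets), with medians as bars and genes past the edgeR threshold filled. MYC at -0.60 and CCN2 at -0.54 are the filled genes below 0, and KLF6, RHOB, MAF and CCND1 those above.

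Heat shock genes encode chaperones that protein damage induces. Their median pooled SD of log2 CPM was 0.0761, beside 0.159 for the members, 0.169 for the other immediate early genes and 0.0916 for the MYC targets. These are descriptions of lists that differ in expression level.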

How the data were processed

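Total RNA of 6 wells was sequenced in pairs of 150 bp from 700 ng with a stranded kit, per the labels' protocols. The submitters' processing notes name cutadapt, STAR 2.5.2b, RSEM 1.2.31 and hg38, with no role or order. The annotation, and whether counting used the strand, are not given in the sources used here. The authors deposited estimated counts per gene and TPM values, for 60499 Ensembl IDs without names. Symbols came from a name table that held 93.1% of the IDs, and positions and overlaps from GENCODE release 29.

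Estimated counts were rounded to whole numbers and filtered with filterByExpr (minimum count 10). The coatings were compared by edgeR 4.0.16 (R 4.3.3, TMM, robust quasi-likelihood test), with Benjamini-Hochberg adjustment over 17608 genes and a threshold of 0.05. The SE is the absolute log2 fold change divided by the square root of F. Log2 CPM used a prior count of 2. Every member's counts were whole, within 0.005, in all 6 libraries. Replicates differed by more than counting noise, and each library counted as 1 replicate. The procedure was tested on simulated data. Alternatives used DESeq2 1.42.0, limma 3.58.1 on log2(TPM + 1) and log2(TPM + 0.1), other scalings and filters, a GC correction, a replicate block and leaving out each library.

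Members and lists were chosen with earlier results of these data known. Genes named beyond the members were, per related list, those past the threshold (at most 4 in each direction) or else the 2 highest in TPM, the 5 genes nearest to FOS and to EGR1 over the wells, genes that overlap a member, and POU5F1, SOX2 and NANOG. FOSL1, the other markers, the genes overlapping a list gene and the list genes that passed only in an alternative were named after their values were seen. Some genes that this rule names are not reported here.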

Additional observations from a re-analysis of the deposited data

How the results depend on the processing

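Direction was kept by MYC, JUN, JUNB, JUND, FOSB and EGR1 in every alternative that tested them, and no member other than MYC passed in any (lowest adjusted p 0.111). The 446 calls over all genes became 718 with no filter beyond 1 count, 725 at an adjusted p under 0.1, 933 with a GC correction, 1084 with a GC correction and a replicate block, 44 on log2(TPM + 1) and 20 on log2(TPM + 0.1). On log2(TPM + 1), 75.0% of calls were higher, against 55.2% in the test as described. With no filter beyond 1 count it was 46.8%, with 336 higher and 382 lower, so the larger share turned to lower. Leaving out 1 library gave 194 to 1179 calls: 1179 without LN-521 replicate 1, 201 without LN-521 replicate 3, and 290, 198 and 194 without LN-521+LN-221 replicates 1, 2 and 3. Calls among the members were 0 with RLE size factors, with the GC correction and on both TPM scales, and 0 to 1 with 1 library left out. Calls in the related lists, 5 in the test as described, were 10 with the GC correction, 10 with it and the block, 9 at 0.1, 0 on both TPM scales and 3 to 13 with 1 library left out. FOSB and FOSL2 did not pass the TPM filter, and 4 of the 8 members left peaked on LN-521, on log2(TPM + 1) and log2(TPM + 0.1) alike. The sign turned for FOS (0.030 on log2(TPM + 1), 0.031 on log2(TPM + 0.1), 0.019 with the GC correction, 0.024 with it and the block, -0.189 to 0.087 with 1 library left out), for ATF3 (0.123 and 0.149 on the TPM scales, -0.094 to 0.0062 with 1 library left out) and for MAP2K2 (0.054 and 0.055 on the TPM scales, 0.052 with the GC correction with and without the block, -0.077 to 0.068 with 1 library left out). With 1 library left out it also turned for IER2 (-0.016 to 0.198), HSP90AB1 (-0.033 to 0.034) and FOSL2 (-0.360 to 0.013). In these fits without 1 library, sizes moved without a change of sign for FOSB (-0.41 to -0.07), JUN (0.05 to 0.19) and JUNB (0.17 to 0.33). The same held for JUND (-0.21 to -0.05) and EGR1 (-0.10 to -0.0038). It also held for NPM1 (0.029 to 0.104), LDHA (-0.102 to -0.0039) and HSPA8 (0.0069 to 0.054). On log2(TPM + 0.1), JUND was at -0.223. The cause was not tested. Deviations of same-numbered wells from their coating means had correlations of 0.047, -0.022 and 0.0090. The mean between wells of different number was -0.0057. With 3 wells per coating these values cannot decide whether the numbers pair the wells, and the labels do not say. With the replicate block, 646 genes were called and MYC was at -0.59 (edgeR adjusted p = 0.00087). FOSB and FOSL2 rest on 41 to 109 counts per library, which limits their precision.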

Other observations

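The deposited TPM and the counts of FOSL2 moved apart between wells. FOSL2 was at 0.79, 0.50 and 1.39 TPM in replicates 1 to 3 on LN-521 and at 0.56, 0.41 and 0.70 TPM on LN-521+LN-221. In CPM the same LN-521 wells were nearly level, at 4.14, 4.10 and 3.89. The ratio of TPM to CPM, which depends on the transcript length used for the gene in each library, differed 2.85-fold between the highest and the lowest well, at percentile 99.3 of genes with at least 1 CPM, where the median gene differed 1.13-fold. For FOSB, which has a known short splice form, the ratio differed 1.39-fold, for JUND 1.26-fold and for ATF3 1.24-fold. JUN, JUNB and EGR1 stayed at 1.01-fold. The highest well of FOSL2 is therefore LN-521 replicate 3 in TPM and LN-521 replicate 1 in CPM. Transcript-level values were not analysed here.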
